A study of Mus musculus with 8 samples.

Results

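Mitochondria fuse and divide, and the balance of both processes sets the shape of the mitochondrial network. Fusion of the outer membrane needs the mitofusins Mfn1 and Mfn2, and fusion of the inner membrane needs the dynamin-like GTPase Opa1, whose long forms are cut by the inner membrane proteases Oma1 and Yme1l1. Fission needs the GTPase Drp1, encoded by *Dnm1l*, which is recruited to the outer membrane by the receptors Mff, Mief1 (MiD51) and Mief2 (MiD49), while Fis1 is a further outer membrane protein of the fission machinery. In adipose tissue, mitochondrial shape is known to differ between brown adipocytes, which are packed with mitochondria, and white adipocytes.

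The members described here are the 10 genes *Opa1*, *Mfn1*, *Mfn2*, *Dnm1l*, *Fis1*, *Mff*, *Mief1*, *Mief2*, *Oma1* and *Yme1l1*. They were chosen by symbol and not by a cut on their expression, with earlier results of these data known, from 38343 genes that had values. All 10 entered the comparison of 16069 genes with a mean expression of at least 1 FPKM (fragments per length of transcript and per sequencing output of the library). Expression was measured by sequencing of poly(A)+ RNA from inguinal white adipose tissue (ING WAT), a subcutaneous depot, of C57BL/6j mice. Tissue was taken from 4 mice at postnatal day (PN) 21 (m1, m49, m138 and m145) and, at PN98, from another 4 (m35, m106, m114 and m125). The question was how the tissue changed from weaning to young adulthood. No genetic or drug treatment distinguishes the groups in the labels. The methods describe weaning at PN21, after which males were kept on a semisynthetic diet and, as young adults, on a control or a Western style diet. Which diet the PN98 mice had eaten is not given for these libraries, so diet cannot be told apart from age here. The sex of the PN21 mice is not stated for them either, although the study also took epididymal fat, a male depot, from its PN21 group. Each library came from a whole depot, in which fewer cells of a type and less RNA per cell cannot be told apart.

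The table holds 58 of the 74 transcripts that GENCODE vM21 lists for these genes, and 57 of the 58 were above 0 in at least 1 mouse. *Mief1* and *Mief2* stand in it under the older symbols *Smcr7l* and *Smcr7*. *Dnm1l* is represented by 1 of its 7 annotated transcripts, so its value is that of the transcript ENSMUST00000096229 and not a total for the gene. *Mief1* has 2 of 8 listed, *Mfn1* 7 of 10 and *Mff* 15 of 16, so sums and ratios that use these genes may also be incomplete. The genes lie on 8 chromosomes, with *Opa1* and *Dnm1l* both on chromosome 16 and *Mfn2* and *Oma1* both on chromosome 4. All rows of *Fis1* share their annotation with *Cldn15*, those of *Mief2* with *Mir5100*, and some rows of *Yme1l1*, *Mfn2* and *Mff* share theirs with an overlapping gene or pseudogene. Reads of such neighbours may have been split between the genes, so these levels carry that uncertainty.

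The libraries were not alike. The files hold no read counts and the depth is therefore unknown. Between 55483 and 62247 transcripts per mouse were above 0. Adipocyte genes were present in every library. The 5 listed as white adipocyte markers, most of which brown adipocytes also express, summed to 11819 to 21937 FPKM at PN21 and to 31156 to 41222 FPKM at PN98, most of it *Fabp4*. *Lep*, the white-selective gene among them, was 25.4 to 82.4 FPKM at PN21 and 102 to 569 FPKM at PN98. Brown adipocyte markers summed to 3037 to 6458 FPKM at PN21 and to 371 to 4228 FPKM at PN98, with the lowest sum in m35. These markers did not move alike, 5 of the 6 having a negative log2 fold change and 1 a positive one. *Ucp1* was 544 to 650 FPKM at PN21 and 7.41 to 356 FPKM at PN98. The means at PN21 and PN98 were 483 and 507 FPKM for *Cidea* and 2.93 and 28.3 FPKM for *Elovl3*. Skeletal muscle markers summed to 11.5 to 407 FPKM at PN21 and to 394 to 2598 FPKM at PN98. Lymphocyte markers summed to 173 to 430 FPKM at PN21 and to 5.29 to 428 FPKM at PN98, with the highest PN98 sum in m35. Proliferation markers, all 5 of which passed the test as lower at PN98, summed to 70.1 to 118 FPKM at PN21 and to 6.72 to 28.1 FPKM at PN98. Epithelial markers summed to 1.87 to 27.2 FPKM at PN21 and to 0.211 to 1.11 FPKM at PN98, with *Krt14* listed at 0 in all 4 PN98 mice. The part of these differences in the results below was not tested. PN98 mouse m35 had a mean Pearson correlation across genes of 0.851 with mice of its own age and of 0.874 with PN21 mice, whereas every other mouse was closer to its own age.

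No fusion or fission gene differed between PN21 and PN98 after correction. Of the 10 members 0 had an adjusted p under 0.05 (limma on log2(summed FPKM + 1), Benjamini-Hochberg over all 16069 genes), and 840 of all genes, or 5.23%, had one (2.32% higher and 2.91% lower at PN98). The split of all genes turned with the scaling, from 372 higher and 468 lower as deposited to 767 higher and 460 lower with median of ratios scaling and to 537 higher and 258 lower when scaled to nuclear genes, while arrayWeights gave 1144 higher and 3474 lower. At an unadjusted p under 0.05 the only member as deposited was *Oma1*, against 27.2% of all genes. With median of ratios scaling it was *Mfn2* instead (limma, unadjusted p = 0.0409), beside 4060 of 16023 genes. Scaled to nuclear genes it was again *Mfn2* (limma, unadjusted p = 0.0464), beside 3545 of 16046 genes. The FPKM ranges of the 2 ages overlapped for all 10 members, while 16.0% of all genes had ranges that did not overlap. As deposited, 7 of the 10 members had a negative log2 fold change, and their median was −0.17. Of all genes 67.0% were negative, and the median was −0.21. With median of ratios scaling, which moved the median of all genes to −0.02, 4 of the 10 members were lower, beside 51.3% of all genes, and their median was 0.05. The direction of the members as a list therefore turned with the scaling of the libraries.

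**Figure D1:**
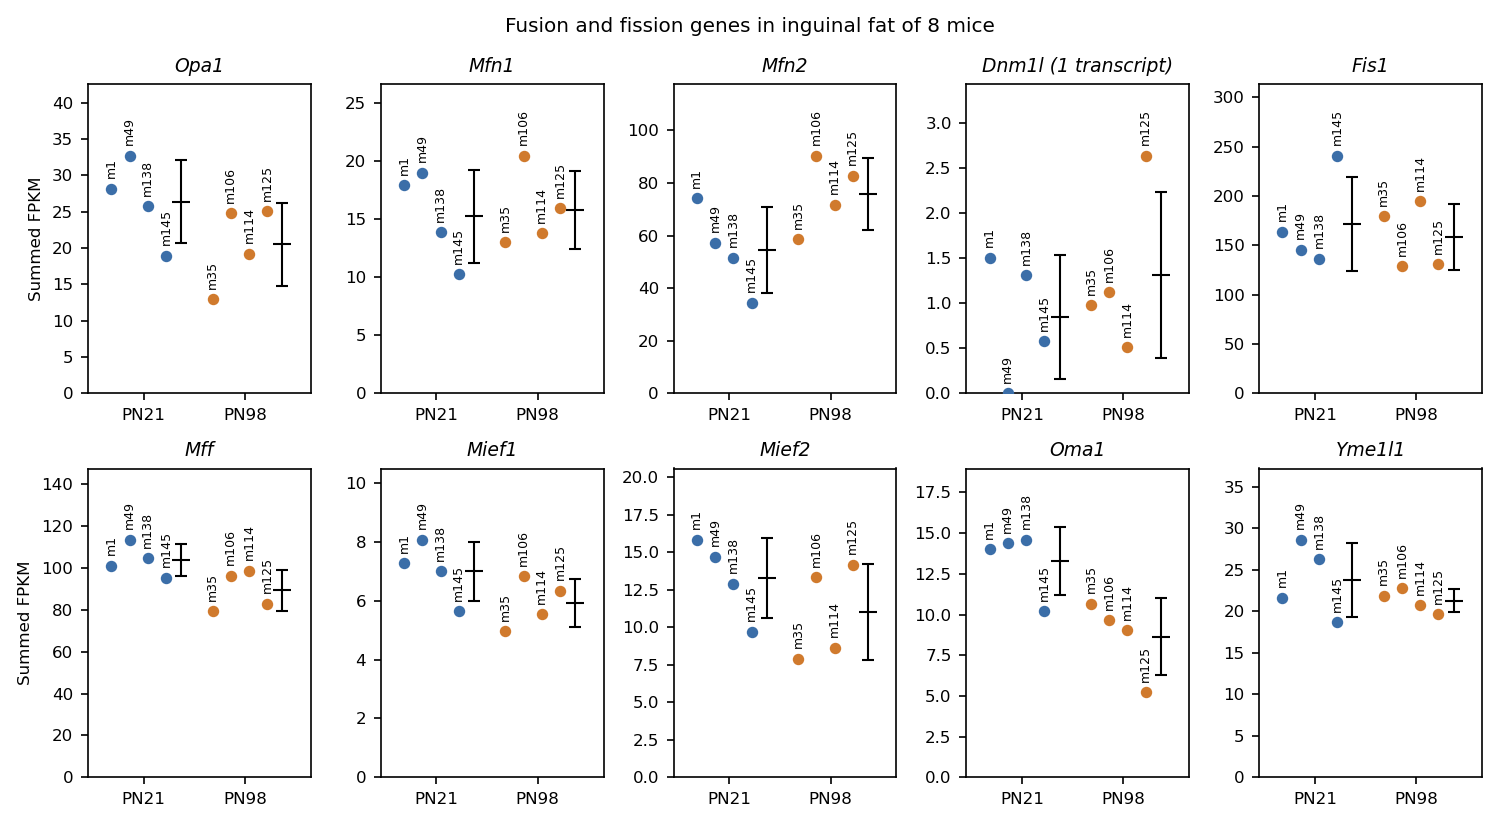
Summed FPKM (y axis, linear from 0) of the 10 genes in each of the 8 mice, named at the points, with blue for PN21 and orange for PN98. The black bar is the mean ± SD of 4 mice. In every panel the points of the 2 ages overlap, and *Mfn2* and *Oma1* are shifted most, in opposite directions.

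By level the members fell into steps, not all of which held in every mouse. FPKM is per transcript length, but missing transcripts, shared rows and non-coding transcripts limit the comparison between genes. *Fis1* was highest with a mean of 165 FPKM over 8 mice, followed by *Mff* with 96.4 and *Mfn2* with 65.1, and each exceeded the next gene in all 8 mice. *Opa1* (23.5) and *Yme1l1* (22.6) could not be ordered, *Opa1* being higher in 5 of 8 mice. *Mfn1* followed with 15.6 FPKM, below *Yme1l1* in all 8 mice. *Mief2* (12.1) and *Oma1* (10.97) could again not be ordered, *Mief2* being higher in 4 of 8 mice. *Mief1* (6.45) had the lowest mean of the genes with more than 1 transcript listed, below *Oma1* in 7 of 8 mice. Only 2 of its 8 annotated transcripts are listed, so its rank carries that limit. Transcripts not annotated as protein-coding held part of these sums, on average 44.6% of *Oma1* and 29.3% of *Mff* at PN21, but no part of *Mief1*.

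Of the mitofusin genes, *Mfn2* had the higher mRNA level, and its product also tethers mitochondria to the endoplasmic reticulum. Summed *Mfn2* was 74.2, 57.3, 51.6 and 34.5 FPKM at PN21 in m1, m49, m138 and m145, and 58.5, 90.4, 71.8 and 82.7 FPKM at PN98 in m35, m106, m114 and m125. Of the PN98 mice, m106 and m125 lay above the highest PN21 mouse, and m35 and m114 lay inside the PN21 range. The means were 54.4 ± 16.4 at PN21 and 75.9 ± 13.8 at PN98 (SD, n = 4 each), a log2 fold change of 0.50 ± 0.25 (SE; limma, adjusted p = 0.227). Left out in turn, m145 gave 0.31, m35 gave 0.62 and m1 gave 0.67, the last with an unadjusted p of 0.0296 (limma, adjusted p = 0.180). Median of ratios scaling gave 0.73 (limma, unadjusted p = 0.0409, adjusted p = 0.177). Scaling to nuclear genes gave 0.77 (limma, unadjusted p = 0.0464, adjusted p = 0.218). Skeletal muscle markers summed higher in 3 of the PN98 mice (m35, m106 and m114) than in any PN21 mouse, and their part in the *Mfn2* values was not tested. The leading *Mfn2* transcript ENSMUST00000105716 held 87.7% ± 8.25 of the sum at PN21 and 84.4% ± 4.99 at PN98 (SD, n = 4).

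*Mfn1*, the other mitofusin, was 17.9, 19.0, 13.9 and 10.3 FPKM at PN21 and 13.01, 20.5, 13.8 and 16.0 FPKM at PN98, in the same order of mice. The ages covered nearly the same range. The log2 fold change was 0.06 ± 0.23 (SE), with a 95% interval from −0.47 to 0.60 (limma, adjusted p = 0.879).

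The ratio of the mitofusins within a mouse does not depend on how the library was scaled. *Mfn2* to *Mfn1* was 4.14, 3.01, 3.72 and 3.36 at PN21 and 4.50, 4.41, 5.20 and 5.17 at PN98. All 4 PN98 mice lay above all 4 PN21 mice. How often ratios of other gene pairs separate in this way was not counted, here or for the ratios below. The mean ratio was 3.56 ± 0.482 at PN21 and 4.82 ± 0.425 at PN98 (SD, n = 4), a difference of 0.44 ± 0.12 on the log2 scale (SE; two-sided exact permutation test, p = 0.0286, the smallest that 4 against 4 mice allow). Over the 4 ratios tested the Benjamini-Hochberg value was 0.0571, so the ratio did not pass the correction. A ratio at the smallest p cannot pass unless most of the others reach it too, so the correction cannot decide here. With the leading transcripts alone, ENSMUST00000105716 over the *Mfn1* transcript ENSMUST00000118286, the difference was 0.31 (exact p = 0.2), and with protein-coding transcripts alone it was 0.46 (exact p = 0.0571).

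**Figure D2:**
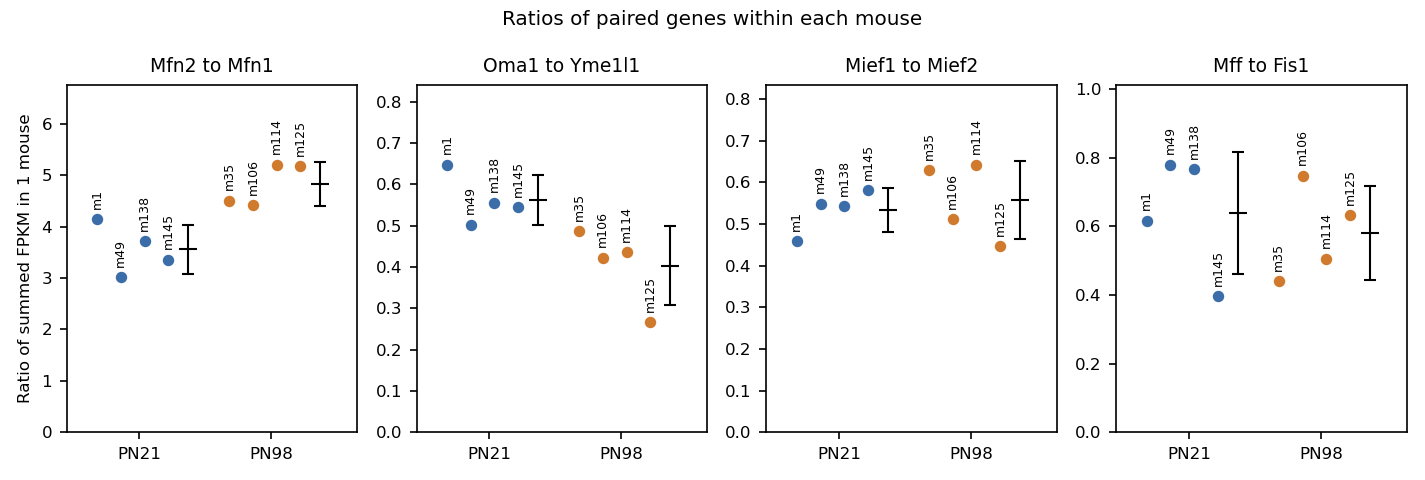
Ratio of summed FPKM of 2 related genes within each mouse (y axis, linear from 0), with blue for PN21, orange for PN98, mouse names at the points and the mean ± SD of 4 mice as a black bar. For *Mfn2* to *Mfn1* every PN98 mouse is at 4.41 or above and every PN21 mouse at 4.14 or below, and for *Oma1* to *Yme1l1* every PN98 mouse is at 0.487 or below and every PN21 mouse at 0.502 or above. The other ratios overlap.

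*Opa1* was 28.2, 32.7, 25.7 and 19.0 FPKM at PN21 and 12.9, 24.8, 19.2 and 25.1 FPKM at PN98. The lowest value was that of m35, and without it the PN98 mice lay inside the range of PN21. The means were 26.4 ± 5.74 and 20.5 ± 5.74 (SD, n = 4), a log2 fold change of −0.37 ± 0.26 (SE; limma, adjusted p = 0.369). It was −0.17 without m35 and −0.14 with median of ratios scaling. Beneath this sum, the *Opa1* transcripts did not move alike.

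*Opa1* has 8 transcripts in the table, on the plus strand of chromosome 16 (GRCm38, chr16:29579334-29654884), and 3 protein-coding ones held on average 57.4%, 22.7% and 15.0% of the sum over the 8 mice. These are the leading transcript ENSMUST00000160597 (6230 nt), ENSMUST00000038867 (3230 nt) and ENSMUST00000161186 (3153 nt). ENSMUST00000038867 holds a coding exon of 54 bases, at chr16:29588823-29588876, that both others lack. ENSMUST00000161186 holds one of 111 bases, at chr16:29597586-29597696, that both others lack. Both lengths are multiples of 3, of 18 and 37 codons, so neither exon shifts the reading frame. The exons are shown because they distinguish the transcripts whose values follow. The 54-base exon accounts for the whole difference in coding length between ENSMUST00000160597 (2880 bases) and ENSMUST00000038867 (2934 bases), whereas ENSMUST00000161186 (2993 bases) differs by more than its 111-base exon. Capitals mark the exon and lower case marks the 20 coding bases on each side, as in the GENCODE vM21 transcript sequences, 5′ to 3′. The leading transcript joins the flanks directly.
ENSMUST00000160597 at the 54-base position: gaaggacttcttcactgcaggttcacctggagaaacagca
ENSMUST00000038867, with the 54-base exon: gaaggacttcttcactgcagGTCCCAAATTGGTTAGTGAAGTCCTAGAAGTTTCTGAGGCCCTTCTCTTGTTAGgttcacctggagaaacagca
ENSMUST00000160597 at the 111-base position: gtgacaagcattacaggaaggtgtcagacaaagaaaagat
ENSMUST00000161186, with the 111-base exon: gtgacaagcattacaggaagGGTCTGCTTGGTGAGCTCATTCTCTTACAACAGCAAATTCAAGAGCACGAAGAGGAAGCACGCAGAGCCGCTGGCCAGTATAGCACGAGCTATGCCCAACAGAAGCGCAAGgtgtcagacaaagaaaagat

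The leading transcript ENSMUST00000160597 was 12.9, 17.4, 12.3 and 10.1 FPKM at PN21 and 9.17, 16.4, 11.7 and 15.4 FPKM at PN98. Its log2 fold change was −0.01 ± 0.26 (SE; limma on log2(FPKM), adjusted p = 0.986). ENSMUST00000038867, with the 54-base exon, was 9.34, 9.69, 5.87 and 5.62 FPKM at PN21 and 1.38, 4.53, 4.71 and 3.19 FPKM at PN98. All 4 PN98 mice lay below all 4 PN21 mice. The log2 fold change was −1.25 ± 0.44 (SE; limma, unadjusted p = 0.0229, adjusted p = 0.177), so the transcript did not pass the correction, and without m35 it was −0.86 (limma, adjusted p = 0.111). With median of ratios scaling or scaling to nuclear genes its unadjusted p was not under 0.05 (limma). Its share of summed *Opa1* was 33.1%, 29.6%, 22.8% and 29.6% at PN21 and 10.7%, 18.3%, 24.5% and 12.7% at PN98, so its shares overlapped. ENSMUST00000161186, with the 111-base exon, was 5.06, 4.88, 6.54 and 0.00748 FPKM at PN21 and 1.74, 2.38, 2.68 and 6.22 FPKM at PN98, and m145 was nearly without it.

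As a share of summed *Opa1*, the leading transcript held 45.7%, 53.1%, 47.9% and 53.0% at PN21 and 70.9%, 66.2%, 60.7% and 61.3% at PN98. The shares of the 2 ages did not overlap, and how many of all genes show the same for their leading transcript was not counted. The means were 49.9% ± 3.74 and 64.8% ± 4.78 (SD, n = 4), a difference of 14.9 percentage points (two-sided exact permutation test, p = 0.0286, adjusted p = 0.257 over the 9 genes with more than 1 transcript). This p is the smallest that the test allows. A gene there cannot pass unless most of the others reach it too, so the correction cannot decide for *Opa1*. Transcripts holding the 54-base exon made up 33.2% ± 7.99 of the sum at PN21 and 18.6% ± 5.64 at PN98, and those holding the 111-base exon 17.8% ± 5.53 and 16.2% ± 5.70 (SD, n = 4). For the 54-base exon the ages nearly touched, with 24.75% in m138 at PN21 and 24.50% in m114 at PN98. The highest PN21 share, 43.4% in m145, included 12.7% from ENSMUST00000162240 (888 nt), which was nearly absent from the other PN21 mice. These exon shares were computed after the transcript values were seen and are given without a test. The transcripts also differ at their 3′ ends, the last exon being 3131, 123 and 64 bases long in ENSMUST00000160597, ENSMUST00000038867 and ENSMUST00000161186. Exon inclusion and use of the longer 3′ end can therefore not be told apart from these values.

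**Figure D3:**
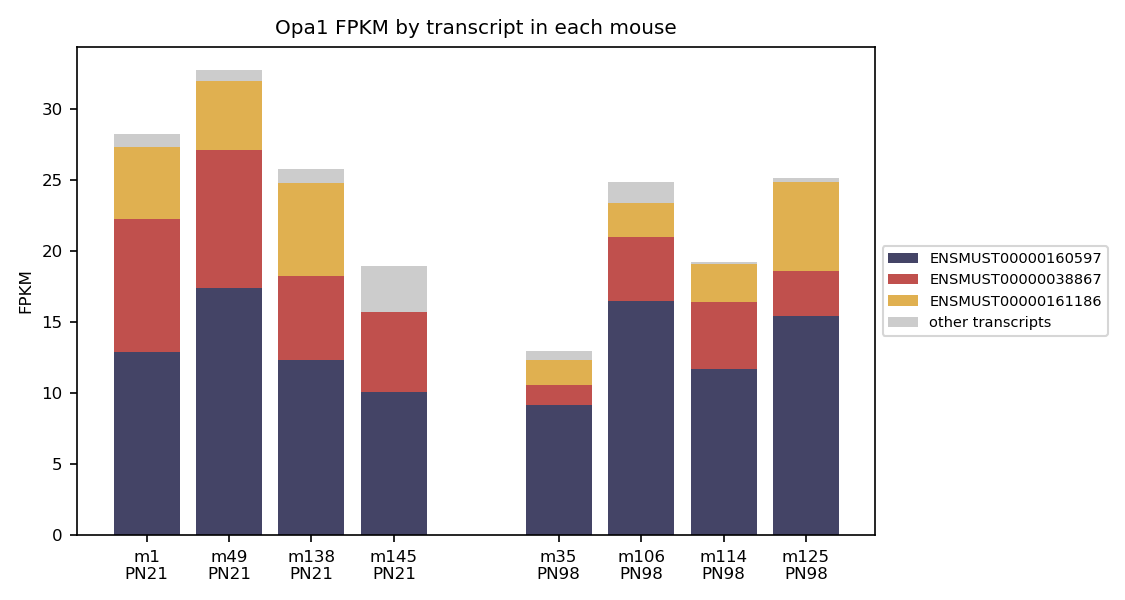
FPKM of *Opa1* (y axis, linear from 0) in each mouse, stacked by transcript, with PN21 mice on the left and PN98 mice on the right. The dark segment, ENSMUST00000160597, spans 9.17 to 17.4 FPKM at both ages together, while the red segment, ENSMUST00000038867, is 5.62 to 9.69 FPKM at PN21 and 1.38 to 4.71 FPKM at PN98.

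For the other 8 genes with more than 1 transcript, the share of the leading transcript overlapped between the ages, with adjusted p-values of 0.771 to 1 (exact permutation tests). Of all member transcripts 27 passed the expression filter of the study (above 0 in all mice, mean above 2 FPKM at either age). Of these, 0 had an adjusted p under 0.05, against 1.32% of the 23092 transcripts tested, and 1 had an unadjusted p under 0.05, against 21.7% (limma). That transcript, ENSMUST00000038867, was also the only one of the 27 whose ages did not overlap, against 14.2% of all transcripts. These counts are for FPKM as deposited. With median of ratios scaling 0 of the 27 had an unadjusted p under 0.05, beside 4650 of 22977 transcripts (limma). Scaled to nuclear genes it was again 0 of 27, beside 4176 of 23043 (limma). The 27 had a median log2 fold change of −0.18, beside −0.24 for all transcripts, and 17 of them were lower at PN98.

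The protease genes of *Opa1* differed in their values. *Oma1*, which is activated by mitochondrial stress, was 14.0, 14.4, 14.6 and 10.2 FPKM at PN21 and 10.7, 9.64, 9.03 and 5.23 FPKM at PN98. The ages overlapped by m145 and m35. The means were 13.3 ± 2.08 and 8.64 ± 2.37 (SD, n = 4), a log2 fold change of −0.59 ± 0.23 (SE) with a 95% interval from −1.12 to −0.07, and the largest decrease of the 10 members under FPKM as deposited (limma, unadjusted p = 0.0319, adjusted p = 0.152). Left out in turn, m35 gave −0.70 and m125 −0.40. Weighting of the mice by limma's arrayWeights, under which 4618 of all 16069 genes passed, gave −0.55 with an adjusted p of 0.0431. The value shrank to −0.39 with median of ratios scaling (limma, unadjusted p = 0.0596, adjusted p = 0.214), to −0.35 when scaled to nuclear genes (unadjusted p = 0.194, adjusted p = 0.433; limma) and to −0.37 with protein-coding transcripts alone (unadjusted p = 0.0725, adjusted p = 0.207; limma), and under these the unadjusted p did not stay under 0.05. The leading transcript ENSMUST00000035780, which is the single protein-coding one, was 7.01, 9.79, 6.68 and 5.89 FPKM at PN21 and 6.56, 5.13, 5.02 and 4.87 FPKM at PN98 (log2 fold change −0.43 ± 0.21, SE; limma, adjusted p = 0.271). A short non-coding transcript of 426 nt, ENSMUST00000143399, had means of 4.27 ± 1.36 and 1.83 ± 1.38 FPKM (SD, n = 4) and changed by −1.58 ± 0.68 on the log2 scale (SE; limma, adjusted p = 0.232).

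*Yme1l1*, an ATP-dependent protease of the inner membrane, was 21.7, 28.6, 26.3 and 18.7 FPKM at PN21 and 21.9, 22.8, 20.7 and 19.6 FPKM at PN98. All PN98 mice lay within the range of PN21 (log2 fold change −0.14 ± 0.17, SE; limma, adjusted p = 0.595). The ratio of *Oma1* to *Yme1l1* was 0.647, 0.502, 0.555 and 0.545 at PN21 and 0.487, 0.423, 0.435 and 0.266 at PN98. All 4 PN98 mice lay below all 4 PN21 mice. The mean ratio was 0.562 ± 0.0610 at PN21 and 0.403 ± 0.0952 at PN98 (SD, n = 4), a difference of −0.51 ± 0.21 on the log2 scale (SE; two-sided exact permutation test, p = 0.0286, Benjamini-Hochberg value 0.0571 over 4 ratios). This ratio too had the smallest p possible, so the correction cannot decide for it. Without m125, which had the lowest ratio, the difference was −0.32, and with protein-coding transcripts alone it was −0.28 (exact p = 0.0571).

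Among the fission genes, *Dnm1l* had the lowest values. Its single transcript was 1.504, 0.000317, 1.31 and 0.576 FPKM at PN21 and 0.981, 1.12, 0.511 and 2.64 FPKM at PN98. Mouse m49 was nearly at 0 and m125 was highest. The log2 fold change was 0.33 ± 0.36 (SE), with a 95% interval from −0.50 to 1.17 (limma, adjusted p = 0.559). Without m49 it was 0.069, and with a pseudocount of 0.1 in place of 1 it was 0.96, so the value rested on that mouse and on the pseudocount. As this is 1 transcript of 7, it gives no level for Drp1 mRNA.

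*Fis1*, the most abundant member, was 164, 145.4, 137 and 241 FPKM at PN21 and 180, 129, 195 and 131 FPKM at PN98. Mouse m145 stood above the others and the ages overlapped throughout (log2 fold change −0.10 ± 0.23, SE; limma, adjusted p = 0.801). *Mff*, a tail-anchored receptor of Drp1, was 101, 113, 105 and 95.3 FPKM at PN21 and 79.2, 96.3, 98.6 and 82.8 FPKM at PN98. The PN98 values lay toward the lower end, with m106 and m114 inside the PN21 range (log2 fold change −0.22 ± 0.14, SE; limma, adjusted p = 0.343). With median of ratios scaling the value was 0.01. The ratio of *Mff* to *Fis1* was 0.639 ± 0.178 at PN21 and 0.581 ± 0.136 at PN98 (SD, n = 4; two-sided exact permutation test, p = 0.743, Benjamini-Hochberg value 0.743).

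*Mief1* and *Mief2* encode paralogous receptors of Drp1. *Mief1* was 7.26, 8.06, 6.999 and 5.64 FPKM at PN21 and 4.97, 6.82, 5.54 and 6.34 FPKM at PN98 (log2 fold change −0.21 ± 0.16, SE; limma, adjusted p = 0.423). *Mief2* was 15.8, 14.7, 12.9 and 9.69 FPKM at PN21 and 7.90, 13.3, 8.63 and 14.2 FPKM at PN98 (log2 fold change −0.27 ± 0.24, SE; limma, adjusted p = 0.473). For both genes m145 was lowest at PN21, m35 was lowest at PN98 and the ages overlapped. Their ratio, *Mief1* to *Mief2*, was 0.533 ± 0.0522 at PN21 and 0.558 ± 0.0939 at PN98 (SD, n = 4; two-sided exact permutation test, p = 0.686, Benjamini-Hochberg value 0.743). *Mief1* entered this ratio with 2 of its 8 annotated transcripts and *Mief2* with all 3 of its own.

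**Figure D4:**
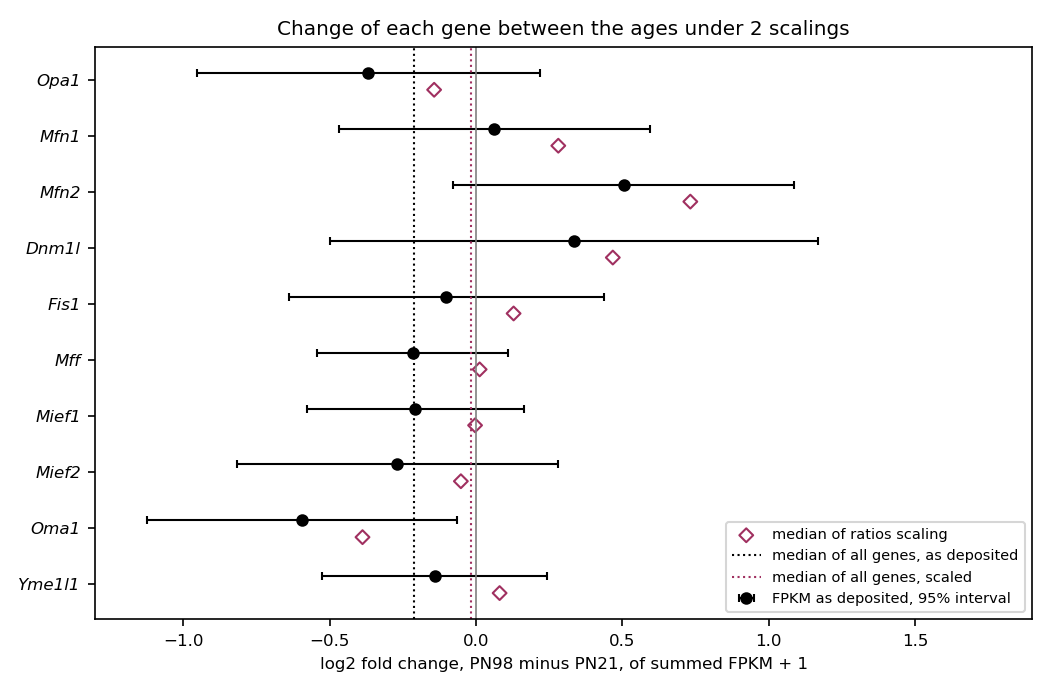
Log2 fold change from PN21 to PN98 (x axis, negative is lower at PN98) of each of the 10 genes. Black points with bars are FPKM as deposited with 95% intervals, open diamonds are the same after median of ratios scaling, and dotted lines are the medians of all genes tested (−0.21 as deposited, −0.02 scaled). All intervals but that of *Oma1* include 0, and scaling moves every gene to the right.

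Values that miss the threshold do not show that a gene was the same at both ages. The 95% intervals reached from −0.54 to 0.11 for *Mff*, the most precise member, and from −0.50 to 1.17 for *Dnm1l*, the least precise (limma). With median of ratios scaling the log2 fold change was 0.28 for *Mfn1*, 0.13 for *Fis1*, 0.081 for *Yme1l1* and −0.05 for *Mief2*.

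The genes whose pattern over the 8 mice came closest were searched among 16068 genes, by the root mean square difference of centred log2(FPKM + 1), as a description. For *Opa1* these were *Mapk6* (difference 0.10) and *Prelid3b* (0.10), against a spread of *Opa1* itself of 0.37. For *Fis1* they were *Nedd8* and *Nagk* (0.07 each), against 0.30, and both shared its high value in m145 (267 and 45.0 FPKM). For *Dnm1l* they were *Gbp11* (0.15) and *Mpp2* (0.23), against 0.52.

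A wider list of 35 other genes of mitochondrial shape was read beside the members, and 29 of them passed the expression filter. None of the 29 had an adjusted p under 0.05 and 5 had an unadjusted p under 0.05, all lower at PN98 (limma), beside 5.23% and 27.2% of all genes. As deposited 22 were lower and 7 higher, with a median log2 fold change of −0.20, and with median of ratios scaling 13 were lower. All 5 tested prohibitin and protease genes and all 6 tested genes of cristae organisation had negative values as deposited, beside 67.0% of all genes. With scaling 4 of each kept a negative value, beside 51.3% of all genes. In the other roles 5 of 9 fission helpers, 3 of 4 motility adaptors, 2 of 2 other inner membrane genes, 1 of 2 E3 ligases and 0 of 1 fusion helpers were lower as deposited. Prohibitins are inner membrane scaffolds that guard the processing of Opa1. *Phb2* was 26.5, 47.3, 44.5 and 91.8 FPKM at PN21 and 19.8, 11.1, 9.25 and 22.2 FPKM at PN98. It was the only gene of the 29 whose ages did not overlap, beside 16.0% of all genes, and its log2 fold change was −1.64 ± 0.41 (SE; limma, adjusted p = 0.0594). *Opa3*, of the inner membrane, had −0.57 ± 0.19 (adjusted p = 0.112), and *Stoml2*, which binds prohibitins, had −0.45 ± 0.16 (limma, adjusted p = 0.128). The others with an unadjusted p under 0.05 were *Letm1* (−0.64) and *Minos1* (−0.66). The highest of the positive values by p were *Mtfr1* (0.29 ± 0.19), *Inf2* (0.32 ± 0.21) and *Spire1* (0.24 ± 0.23), whose products are linked to fission, with adjusted p-values of 0.326 to 0.510 (limma). *Stoml2*, *Opa3* and *Letm1* are also among the genes that the study picked from these samples, so their direction is not independent evidence.

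**Figure D5:**
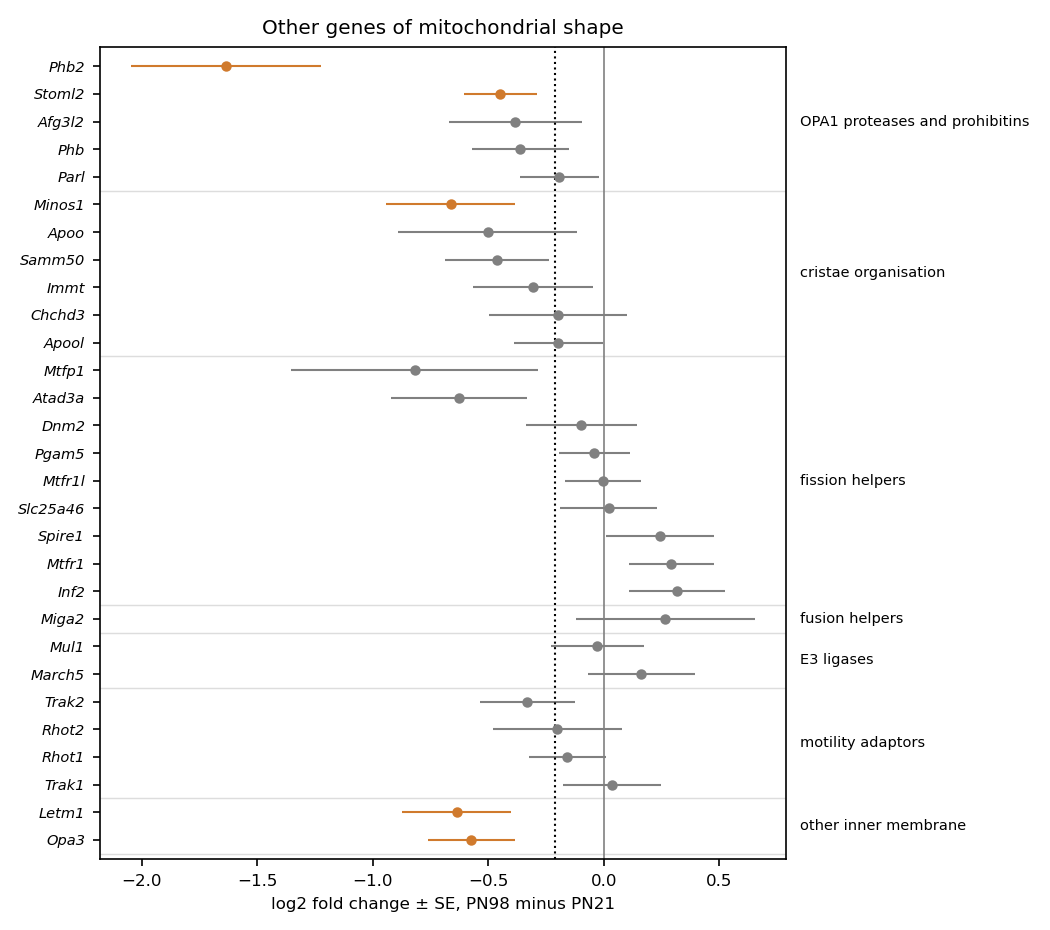
Log2 fold change ± SE (x axis, PN98 minus PN21, FPKM as deposited) of the 29 tested genes of the wider list, grouped by role. Orange marks an unadjusted p under 0.05 (limma) and the dotted line is the median of all genes (−0.21). The 5 orange genes all lie to the left, led by *Phb2* at −1.64.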

How the data were processed

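Per the labels and methods, the authors sequenced poly(A)+ RNA in paired-end reads, mapped it to mm10 (GRCm38) with STAR 2.3.0 and quantified transcripts with Cufflinks 2.1.1. They deposited 1 FPKM value per transcript and mouse, written with decimal commas. Of 91969 transcripts 40426 had lost a decimal mark. Marks were restored from the authors' deposited standard deviation, average and score. A single reading was found for 40314, and 112 were left out. In all 4990 restored transcripts that the authors' second table lists intact, the values were equal. Of the 58 member transcripts 40 were restored, among them the leading transcript of every member. That table's fold changes and p-values were not used.

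Transcripts were assigned to genes by GENCODE vM21 and FPKM summed per gene. Genes averaging 1 FPKM or more were compared with limma 3.58.1 on log2(FPKM + 1), transcripts on log2(FPKM), both with Benjamini-Hochberg adjustment, after testing on simulated data. Ratios and shares were compared with exact permutation tests over 70 splits (scipy 1.17.1). Named were all members, their leading transcripts and transcripts with p under 0.05, the wider-list genes with the 3 lowest p in each direction (*Letm1* and *Minos1*, the ratio of *Mfn2* to *Opa1* and ENSMUST00000161186 and ENSMUST00000143399 were added after their values were seen) and the 2 nearest patterns of *Opa1*, *Fis1* and *Dnm1l* (those of *Mfn2* are not reported here). Members and lists were chosen with earlier results of these data known. Labels do not state separate litters or cages, so p-values measure the spread between these mice. Scaling, weighting, filters, transcript type and left-out mice were varied.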

Additional observations from a re-analysis of the deposited data

Results flagged for a closer look

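In 4 of 68 groups of 4 mice, 1 mouse stood apart from the other 3 by Dixon's criterion, which flags about 1 group in 20 by chance. PN21 mouse m145 had the lowest summed *Oma1* (10.2 FPKM), the highest share of the leading *Fis1* transcript ENSMUST00000019198 (62.7%) and the highest FPKM of that transcript (151). PN98 mouse m35 had the highest value of its age for the *Oma1* transcript ENSMUST00000035780 (6.56 FPKM).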

How the results depend on the processing

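No paired analysis was possible because the labels give the mice of both ages no shared numbers. Of 317 alternative values for 21 single genes, transcripts and the *Opa1* share, without the ratios, 294 kept direction and side of the threshold, 22 changed sign and 1 (*Oma1*) passed it; the cause was not tested. Of the ratios, *Mief1* to *Mief2* changed sign under 3 of 10 alternatives and *Mff* to *Fis1* under 2 of 10.

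The 840 genes with an adjusted p under 0.05 became 4618 with arrayWeights, 540 at a mean of at least 5 FPKM and 0 of 388 with intact decimals only (48 had an unadjusted p under 0.05; limma). Leaving out 1 mouse gave 189 to 3506, the latter without m35. The 304 transcripts became 523 with median of ratios scaling, 1541 with arrayWeights, 507 without the condition on zeros, 100 with a mean above 2 FPKM at both ages, 466 for protein-coding ones only, 0 of 55 with intact decimals only (13 had an unadjusted p under 0.05; limma), and 46 to 1742 without 1 mouse, the latter without m35. With arrayWeights 1 of the 10 members and 4 of the 29 genes of the wider list passed, beside 4618 of all 16069 genes. Without 1 mouse 0 to 1 of the wider list did, beside 189 to 3506 of all genes. Members lower at PN98 numbered 4 with median of ratios scaling and 3 when scaled to nuclear genes.

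Signs changed as follows (log2 scale). With median of ratios scaling *Fis1* was 0.13, *Mff* 0.013, *Yme1l1* 0.081, ENSMUST00000028117 0.086 and ENSMUST00000160597 0.22. Scaled to nuclear genes *Fis1* was 0.16, *Mff* 0.048, *Mief1* 0.024, *Yme1l1* 0.11, ENSMUST00000019198 0.029, ENSMUST00000028117 0.12, ENSMUST00000160597 0.26 and ENSMUST00000023048 0.030. ENSMUST00000160597 was 0.055 with arrayWeights, and the log2 ratio of *Mff* to *Fis1* was 0.11 with protein-coding transcripts only. Leaving out 1 mouse gave −0.10 to 0.17 for *Mfn1*, −0.21 to 0.073 for *Fis1*, −0.37 to 0.013 for ENSMUST00000019198, −0.13 to 0.15 for ENSMUST00000160597, −0.050 to 0.31 for ENSMUST00000118286, −0.019 to 0.16 for *Mief1* to *Mief2* and −0.33 to 0.0067 for *Mff* to *Fis1*.

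No member had a value with intact decimals only. *Dnm1l* had none without m125 or at a mean of at least 5 FPKM, where it fell below the filter. Depth is unknown, and exact tests of 4 against 3 mice cannot go below 0.0571.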

Other observations

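*Mfn2* and *Opa1*, the fusion GTPases of the outer and the inner membrane, were set against each other within a mouse after their values had been seen, so no test is given. The ratio of *Mfn2* to *Opa1* was 2.63, 1.75, 2.01 and 1.82 at PN21 in m1, m49, m138 and m145 and 4.53, 3.64, 3.73 and 3.30 at PN98 in m35, m106, m114 and m125. The ages did not overlap, and the means were 2.05 ± 0.400 and 3.80 ± 0.521 (SD, n = 4). Mouse m35, which resembled PN21 mice across all genes, had the highest ratio of the 8 mice.

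Of the wider list, 5 genes were below the expression filter and *Spg7* is not analysed here. Among these 5, *Pld6*, an outer membrane protein linked to fusion, was 0.855 to 1.42 FPKM at PN21 and 0.101 to 0.675 FPKM at PN98, and *Mtfr2*, linked to fission, was 0.525 to 1.68 FPKM at PN21 and 0.0985 to 0.378 FPKM at PN98. These are the 2 of the 5 whose ages did not overlap, beside 16.0% of the genes tested, and they were named after their values were seen. The ages overlapped for *Chchd6*, *Gdap1* and *Miga1*, and none of the 5 entered a test.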
